A study of Mus musculus with 4 samples.

Results

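The nuclear-encoded subunits of the respiratory chain were followed in the bulk and allele-specific RNA-seq of neural precursor cells. They were chosen by symbol among the protein-coding genes of the bulk count table: the Nduf subunit genes without the assembly factors, the 4 Sdh genes, the Uqcr genes and Cyc1, the Cox4 to Cox8 pattern, and the Atp5 genes. This gave 83 gene identifiers of 55602, of which 37 belong to complex I, 4 to complex II, 9 to complex III, 15 to complex IV and 18 to complex V. A further 12 loci with such names were left out, since they are annotated as pseudogenes or as non-coding, and Cox4i1, Cox4i2, Cox7a2l and Ndufab1 fall outside the pattern.

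Complexes I to IV of the inner mitochondrial membrane pass electrons from NADH and succinate to oxygen. Complexes I, III and IV pump protons, and complex V, the ATP synthase, uses the proton gradient to make ATP. Most of their subunits are encoded in the nucleus and imported, while a small core is encoded by mitochondrial DNA, so that the products of both genomes are built into the same enzymes. Some pluripotent cells are known to lean on glycolysis, and respiration generally becomes more important as neural cells mature.

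JB1 is a male hybrid ES cell line with a JF1 mother and a C57BL/6 (B6) father. Wild-type (WT) cells and a Zfp57-/- line derived from them were differentiated in DDM medium, with 1 µM cyclopamine from day 2 to day 10. Total RNA was collected at day 12 from 2 replicates of each genotype, which the authors call biological. Both genotypes received the same treatment, and the mutant is a single line, so that the loss of Zfp57, a zinc finger protein that protects imprinting marks, and any other difference between the lines cannot be told apart. Zfp57 itself had 392 and 249 counts in the WT and 158 and 144 counts in the Zfp57-/- replicates, where RNA from outside the deleted part can still be counted. Its log2 fold change (log2FC) of mutant over WT was -1.19 (standard error 0.32, edgeR adjusted p = 0.0225), and -0.61 without WT replicate 1.

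The libraries held 7663520 and 10225378 counts for WT and 9545119 and 10337082 for Zfp57-/- cells. The labelled cell type was met in part: of 6 neural progenitor markers 5 were lower in the mutant, of 5 neuron markers 4 were lower, and of 8 pluripotency markers 6 were higher. The summed level of the pluripotency markers was 73.2 and 105 fragments per kilobase of exon, scaled to library size (FPKM), in WT and 799 and 694 in the mutant, with Nanog at 0 counts in both WT libraries. The neuron markers summed to 225 and 397 FPKM in WT and to 51.3 and 42.2 in the mutant. The 5 endoderm markers gave no call (1 at an unadjusted p below 0.05 with edgeR, and 0 adjusted calls with DESeq2), and summed to 49 and 109 FPKM in WT and 102 and 141 in the mutant. The part of these markers in the results that follow was not tested, and in bulk RNA fewer cells of a type and less RNA per cell cannot be told apart.

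Promoters of these genes are known to hold sites for the factors NRF1, GABP (an ETS protein), YY1 and the estrogen-related receptors, which tie nuclear respiratory genes together. Of the members, 67 matched a RefSeq promoter window of 300 bases (GRCm38.p6, 250 before and 50 after the start). Searched on both strands, the NRF1 core CGCATGCG stood in 13.4% of these members and in 2.77% of 17491 protein-coding genes with a window, the ETS core CCGGAAG in 23.9% and 12.9%, and the YY1 core AAGATGGC in 14.9% and 3.57%. The estrogen-related receptor motif TCAAGGTCA stood in 2.99% of the members and in 0.377% of the protein-coding genes. A gene counts as holding a motif where any of its windows does, none of the motifs contains another, and a match is a run of letters, not a bound site. The 120 bases before the start are printed for Cox5b, the member with the largest fold change among those called, for Atp5g2, a member with unequal alleles in WT, and for 4 members that show the other motifs. Capitals mark the motif, on either strand, and none of the 4 motifs was found in the window of Cox5b.
Cox5b, chr1:36691367-36691486, plus strand: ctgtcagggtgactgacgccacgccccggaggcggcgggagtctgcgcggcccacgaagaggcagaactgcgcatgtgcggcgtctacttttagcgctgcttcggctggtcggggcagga
Atp5g2, chr15:102671048-102671167, minus strand: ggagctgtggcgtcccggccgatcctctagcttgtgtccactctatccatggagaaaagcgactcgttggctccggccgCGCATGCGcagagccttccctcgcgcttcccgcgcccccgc
Atp5k, chr5:108434400-108434519, minus strand: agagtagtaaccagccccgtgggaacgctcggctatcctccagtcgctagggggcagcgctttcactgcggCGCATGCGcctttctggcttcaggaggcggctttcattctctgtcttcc
Cox6b1, chr7:30626115-30626234, minus strand: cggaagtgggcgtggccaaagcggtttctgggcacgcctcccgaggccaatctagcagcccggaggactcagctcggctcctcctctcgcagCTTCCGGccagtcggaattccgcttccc
Atp5j, chr16:84834977-84835096, minus strand: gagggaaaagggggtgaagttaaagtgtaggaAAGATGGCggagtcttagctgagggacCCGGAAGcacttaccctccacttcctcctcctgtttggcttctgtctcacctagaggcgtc
Atp5g3, chr2:73911327-73911446, minus strand: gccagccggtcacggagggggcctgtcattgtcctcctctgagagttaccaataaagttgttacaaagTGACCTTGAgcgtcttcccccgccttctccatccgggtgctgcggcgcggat
Atp5g2, which encodes a form of the membrane ring subunit c, and Atp5k, which encodes subunit e, show the NRF1 core. Cox6b1, a subunit on the outer face of complex IV, shows the ETS core. Atp5j, the coupling factor 6 of the ATP synthase stalk, shows the YY1 and the ETS core in a single window. None of the 4 motifs stood in its other window, whose 120 bases before the start are chr16:84835626-84835745. Atp5g3, another subunit c gene, shows the estrogen-related receptor motif.

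Before the genotypes are compared, the difference between the WT replicates has to be described. WT replicate 1 was below WT replicate 2 in 76 of the 79 members with enough counts to be tested (96.2%, against 48.9% of the 19995 genes tested). It was the lowest of the 4 libraries in 67 of 79 (84.8%, against 31.2%). The median log2 ratio of WT replicate 1 to replicate 2 was -0.56 over the members and 0.00 over all genes, while that between the Zfp57-/- replicates was 0.05. In summed FPKM, the members reached 2769 and 4127 in WT and 4694 and 4504 in the mutant. The WT replicates thus differed from each other by more than WT replicate 2 differed from the mutant, whose median log2 ratio over that library was 0.09. With 2 WT libraries, which of them is the atypical one cannot be told. Medians, fold changes and members called are also given without WT replicate 1, and those of the whole set without WT replicate 2. Without WT replicate 1 a lone WT library is left, and the spread within WT is not measured. Calls and adjusted p-values of that fit rest on the spread between the Zfp57-/- replicates.

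**Figure D1:**
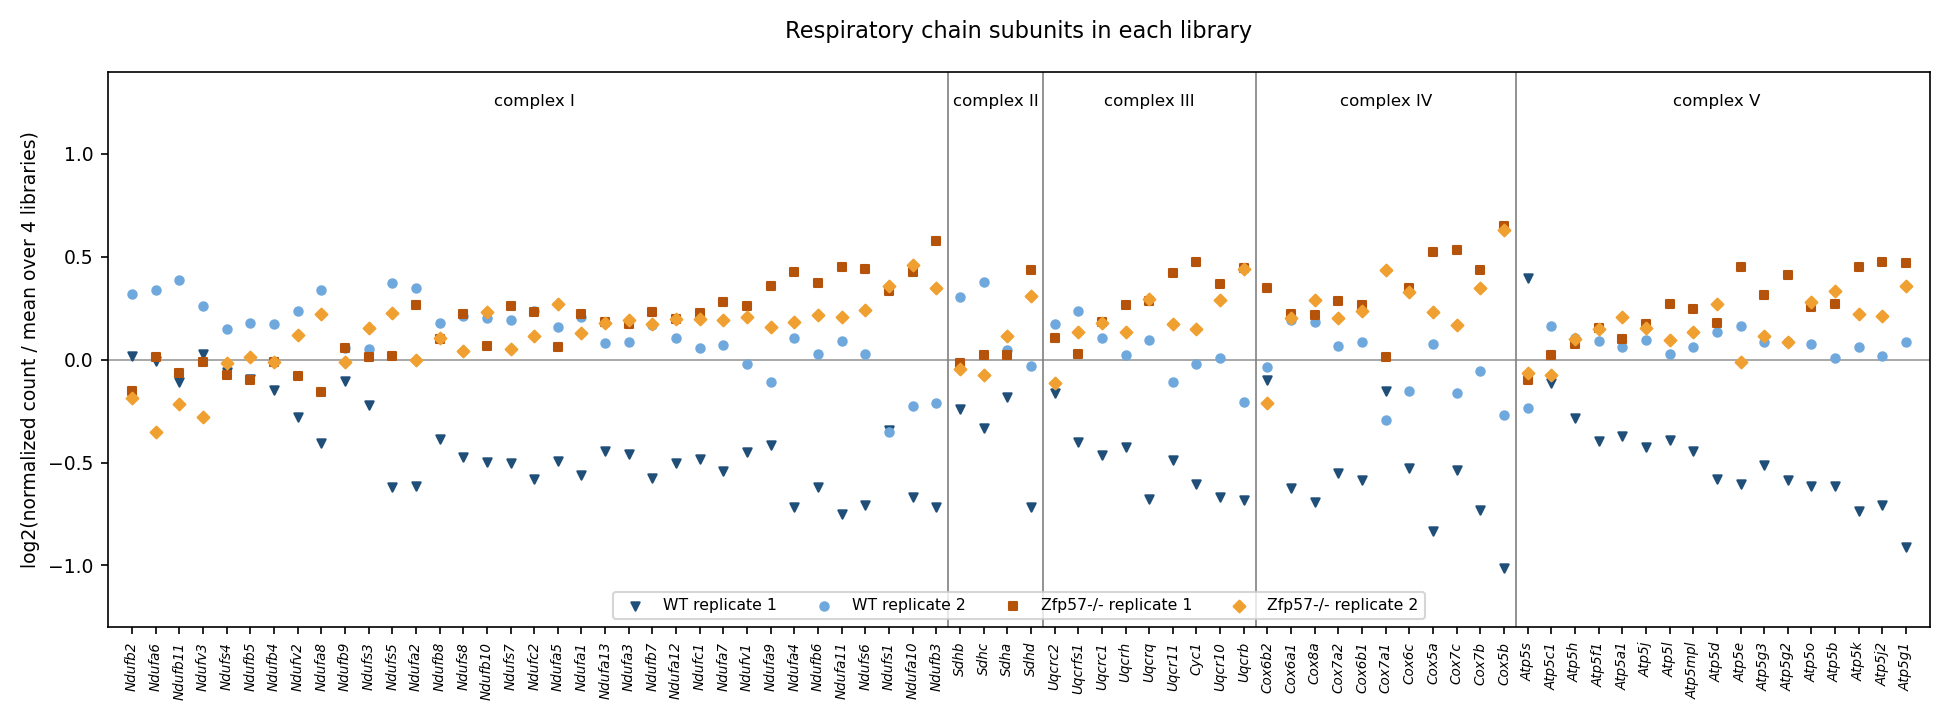
Level of each member in each library, as log2 of the normalized count over its mean in the 4 libraries (y axis), for the 76 members plotted, by complex and by rising fold change (x axis). WT replicate 1 (dark triangles) was the lowest library in 67 of the 79 members tested, and Cox5b, at the right of complex IV, shows the widest gap between genotypes.

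Genotypes were compared to see which subunit genes differed when Zfp57 was missing. Of the 79 members tested, 8 were higher in the mutant (10.1%) and 0 were lower, against 13% of all genes higher and 14.6% lower (27.6% in either direction) at the same edgeR adjusted p of 0.05. The share of higher members was thus near that of all genes. At an unadjusted p below 0.05 edgeR gave 19 higher and 0 lower members, and DESeq2 gave 9 higher and 0 lower after adjustment (all genes 12.4% and 14.6%). The log2FC was positive for 65 of 79 members (82.3%, against 49.6% of all genes), with a median of 0.35 against -0.01. In 45 members both Zfp57-/- libraries lay above both WT libraries (57%, against 33.7% of all genes), and in 3 they lay below (3.8%, against 32.6%). Without WT replicate 1 the median fell to 0.07, and 10 members were higher and 5 lower (all genes 19.1% and 20.5%). Without WT replicate 2 it was 0.69, with 57 higher and 0 lower (all genes 25.6% and 24.5%). Without a Zfp57-/- replicate only Cox5b was called, against 6.2% of all genes higher and 7.58% lower without replicate 1, and 6.42% and 8.09% without replicate 2.

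Fold changes were also compared by gene length. The members were short, with a median exon length of 1675 bp against 3539 bp for all genes. Among genes with a mean of at least 20 counts and up to 1000 bp of exon the median log2 ratio of WT replicate 1 to replicate 2 was -0.69 for 19 members and -0.35 for all 564 genes, and the median log2FC between genotypes was 0.45 and 0.44. Above 4000 bp that ratio of the WT replicates was -0.45 for 10 members and 0.01 for all 7681 genes, so that WT replicate 1 was also low in long members. Between 1000 and 2000 bp the median log2FC was 0.37 for 28 members and 0.28 for all genes, and between 2000 and 4000 bp it was 0.24 for 20 members and 0.14 for all genes. Above 4000 bp it was 0.34 for members and -0.11 for all genes, and the members' median was thus positive at each length. A smooth trend on exon length was then taken out of each library, fitted to its log counts relative to their mean over the libraries. This also takes out a genotype difference that goes with length. With this correction 5 members were higher and 2 lower (all genes 14.5% and 15.7%), and the median was 0.01. With that correction and without WT replicate 1 together, the median was -0.23, with 4 members higher and 21 lower (all genes 16.9% and 18.8%). The median of the set thus shrank with either change alone and turned negative only with both together. That combined setting was added after the data were seen.

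**Figure D2:**
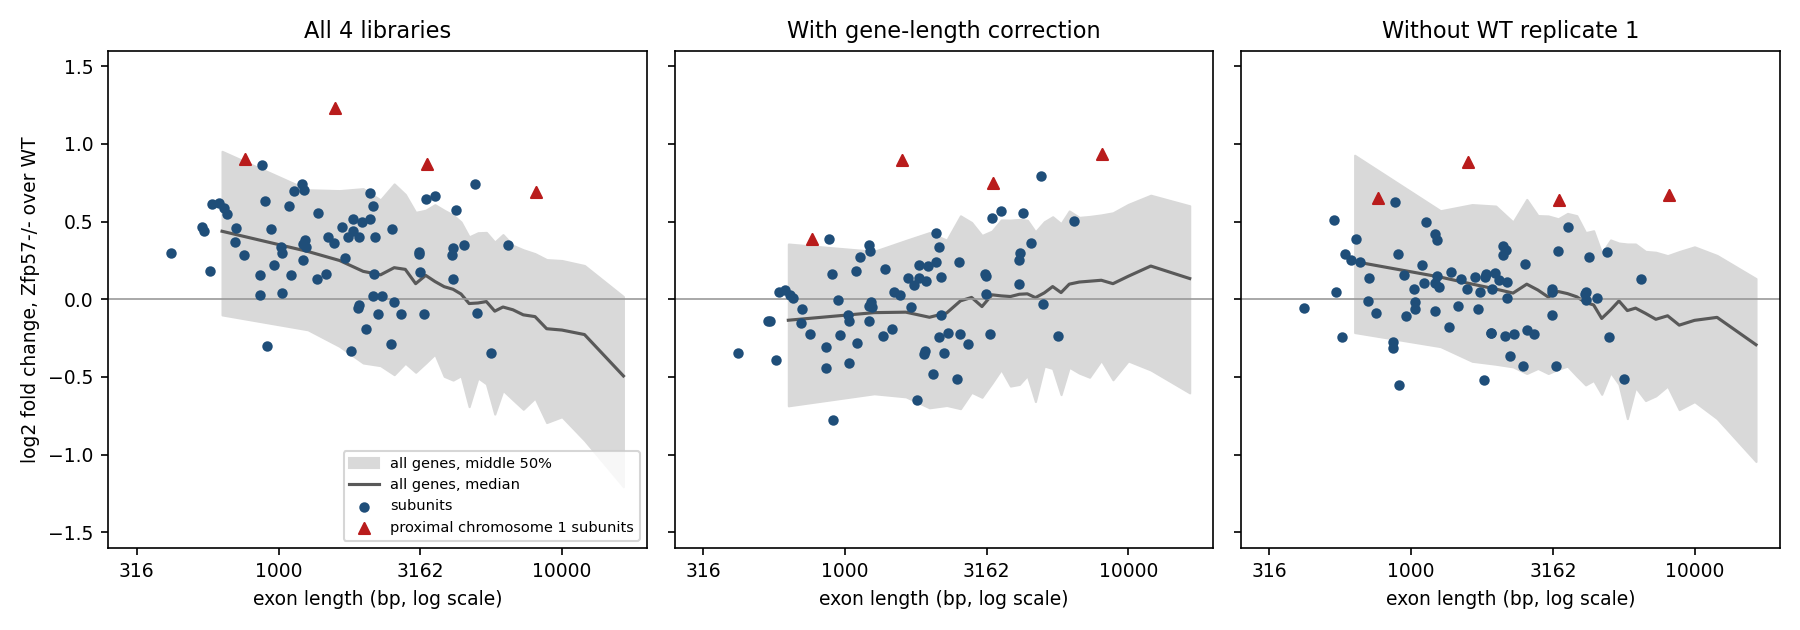
Log2FC of Zfp57-/- over WT (y axis) against exon length on a log scale (x axis), with all 4 libraries, with the gene-length correction, and without WT replicate 1. The grey line and band are the median and middle range of all genes, blue points are members, and red triangles are the 4 members of proximal chromosome 1, which lie above the grey line in each panel.

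Complex I, the NADH dehydrogenase, had 3 of 37 members higher and 0 lower, against 13% and 14.6% of all genes, with a median log2FC of 0.26. The shares of all genes given above for each setting also stand beside the counts of each complex and of each gene list below. The median was -0.06 without WT replicate 1 (3 higher, 3 lower), -0.10 with the length correction (2 higher, 2 lower) and -0.35 with both (2 higher, 13 lower), so that its sign turned with each of these choices. All of the 3 called with all 4 libraries lie on proximal chromosome 1. Gene positions are those of GENCODE vM21 on GRCm38. Ndufs1 (chr1:63143596-63176833), a core subunit that carries iron-sulfur clusters, had normalized counts of 1022 and 1016 in WT and 1632 and 1658 in the mutant. The replicates of each genotype nearly coincided and the groups did not overlap, with a log2FC of 0.69 (standard error 0.18, adjusted p = 0.0197). Ndufa10 (chr1:92439010-92473860), an accessory subunit of the membrane arm, had normalized counts of 728, 990, 1555 and 1590 in the same order, a log2FC of 0.87 (standard error 0.21, adjusted p = 0.0126). Ndufb3 (chr1:58586384-58595964), another accessory subunit of that arm, had 239, 340, 586 and 501, a log2FC of 0.91 (standard error 0.23, adjusted p = 0.0158). Both were higher in each mutant library than in each WT library. Without WT replicate 1 the log2FCs were 0.67, 0.64 and 0.65 for Ndufs1, Ndufa10 and Ndufb3. With the length correction Ndufs1 (0.94) and Ndufa10 (0.75) stayed past the threshold and Ndufb3 did not (0.39, adjusted p = 0.16).

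The remaining complex I members gave no call. Nearest to the threshold was Ndufa9, a subunit near the ubiquinone site, with normalized counts of 452, 559, 773 and 673. Its log2FC was 0.51 (edgeR adjusted p = 0.0841), and 0.35 without WT replicate 1. Ndufa6, an accessory subunit of the LYR family, had 450, 571, 456 and 354 (log2FC -0.34, adjusted p = 0.286), and Ndufb11, an X-linked accessory subunit, had 305, 430, 314 and 283 (log2FC -0.30, adjusted p = 0.357). These 2 were called lower with the length correction (-0.65 and -0.78), and were at -0.52 and -0.55 without WT replicate 1. Ndufv3, a small subunit at the NADH-binding end, had a log2FC of -0.29, and of -0.43 without WT replicate 1. Per length, the highest level in complex I was that of Ndufa4, at 59.8 ± 23.6 FPKM in WT and 87.9 ± 10.5 in the mutant (SD, n = 2); its product is now placed in complex IV.

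Complex II, succinate dehydrogenase, gave no call among its 4 members with edgeR (1 at an unadjusted p below 0.05, and 1 called by DESeq2), with a median log2FC of 0.02. The median was -0.18 without WT replicate 1 (1 higher, 2 lower), -0.06 with the length correction and -0.30 with both (0 higher, 2 lower). Sdhd, a membrane anchor, came nearest, at normalized counts of 439, 707, 978 and 896 (log2FC 0.71, standard error 0.24, adjusted p = 0.0536), and was also the highest per length, at 49.5 ± 16.3 and 80.9 ± 5.02 FPKM (SD, n = 2). Its groups did not overlap, and without WT replicate 1 its log2FC was 0.38. Sdha, the flavoprotein that oxidizes succinate, had a log2FC of 0.13. The iron-sulfur subunit Sdhb and the other anchor Sdhc, which lies on distal chromosome 1, had log2FCs of -0.09 each. Without WT replicate 1 they were at -0.36 and -0.43.

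Complex III, the cytochrome bc1 complex, had 1 of 9 members higher and 0 lower, against 13% and 14.6% of all genes, with a median log2FC of 0.52. The median was 0.16 without WT replicate 1 (2 higher, 0 lower), 0.04 with the length correction (0 called) and -0.11 with both (0 higher, 2 lower). Uqcrb (chr13:66900617-66905378), which binds ubiquinone, had normalized counts of 618, 859, 1351 and 1347. The mutant libraries were alike and above both WT libraries, with a log2FC of 0.87 (standard error 0.21, adjusted p = 0.0138). It was 0.63 without WT replicate 1 and 0.39 with the length correction (edgeR adjusted p = 0.15). Per length it was the highest of the complex, at 89.6 ± 20.7 FPKM in WT and 164 ± 0.331 in the mutant (SD, n = 2). Uqcr11, Uqcr10 and Cyc1, the first 2 of them small subunits and the last the cytochrome c1 protein, had log2FCs of 0.59, 0.62 and 0.60 with adjusted p of 0.0667, 0.0863 and 0.0867. Without WT replicate 1 these were 0.39, 0.29 and 0.32. Uqcrc2, a core protein, was at -0.02, and at -0.20 without that library.

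Complex IV, cytochrome c oxidase, had 4 of 12 tested members higher and 0 lower, against 13% and 14.6% of all genes, with a median log2FC of 0.46. The median was 0.22 without WT replicate 1 (4 higher, 0 lower), -0.04 with the length correction (2 higher, 0 lower) and -0.12 with both (2 higher, 2 lower). Cox5b (chr1:36691449-36693681), a zinc-binding subunit on the matrix side, had normalized counts of 499 and 837 in WT and 1582 and 1561 in the mutant. The mutant libraries lay far above both controls, with the largest log2FC of the members called, 1.23 (standard error 0.25, adjusted p = 0.00553). It stayed called with the length correction (0.90, edgeR adjusted p = 0.00881), and its log2FC was 0.88 without WT replicate 1. The 3 others encode small membrane-spanning subunits. Cox6c on chromosome 15 had normalized counts of 860, 1113, 1577 and 1556 (log2FC 0.67, adjusted p = 0.034), and stayed just past the threshold with the length correction (adjusted p = 0.0474). Cox7c on chromosome 13 had 981, 1271, 2060 and 1598 (log2FC 0.70, adjusted p = 0.0384), and X-linked Cox7b had 455, 725, 1019 and 960 (log2FC 0.74, adjusted p = 0.0427). Neither passed with the length correction (0.27 and 0.35, adjusted p = 0.329 and 0.228). In each of the 3 both mutant libraries were above both WT libraries. Without WT replicate 1 the log2FCs of Cox6c, Cox7c and Cox7b were 0.47, 0.50 and 0.42.

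**Figure D3:**
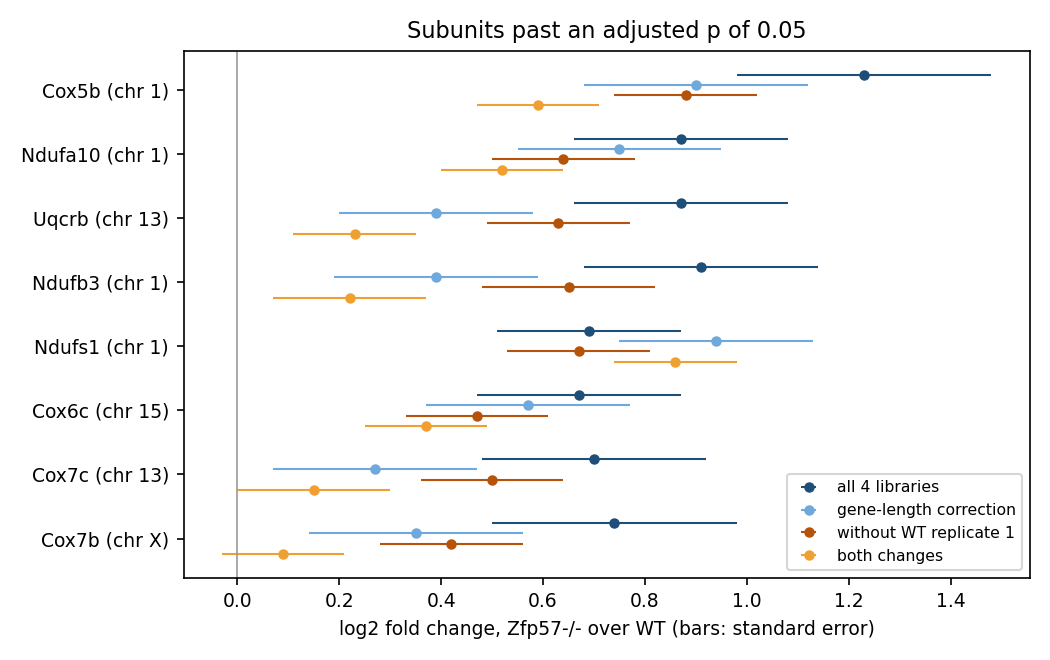
Log2FCs (x axis) of the 8 members past an adjusted p of 0.05 (y axis), with all 4 libraries, with the gene-length correction, without WT replicate 1, and with both changes. Bars are standard errors of the fit; Cox5b lies farthest right with all 4 libraries, at 1.23.

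Complex V gave no call among 17 tested members (4 at an unadjusted p below 0.05 with edgeR, all higher, and 0 called by DESeq2), with a median log2FC of 0.40. The median was 0.11 without WT replicate 1 (0 called), 0.14 with the length correction (1 higher) and -0.13 with both (0 higher, 2 lower). Atp5b and Atp5a1, the subunits that alternate in the catalytic head, were the highest per length. Atp5b was at 203 ± 60.8 FPKM in WT and 302 ± 9.3 in the mutant, and Atp5a1, named after its values were seen, at 225 ± 47.9 and 276 ± 14.1 (SD, n = 2), so that in WT their order was within the replicate spread. The normalized counts of Atp5b were 6394, 9821, 11790 and 12315 (log2FC 0.57, adjusted p = 0.096), which do not overlap between genotypes. Atp5j2 and Atp5k, which encode membrane subunits f and e, were at 0.65 and 0.62 (adjusted p = 0.0818 and 0.113). Without WT replicate 1 Atp5b, Atp5j2 and Atp5k were at 0.27, 0.31 and 0.25. Atp5c1, the central stalk subunit, was at -0.06, and Atp5s, a regulatory factor of the synthase, at -0.19. In complex IV the highest level per length was that of Cox8a (181 ± 75 FPKM in WT and 246 ± 8.48 in the mutant). These levels use the length of all annotated exons, which lowers the value of genes with long exons that are rarely used.

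Subunits with tissue-restricted forms were compared with their widely expressed partners per kilobase. The heart and muscle forms were scarce. Cox6a2, with 2 and 3 counts in WT and 3 and 1 in the mutant, made 0.287 ± 0.0839% of Cox6a1 and Cox6a2 in WT and 0.166 ± 0.12% in the mutant. Cox7a1 made 4.93 ± 1.71% and 4.72 ± 1.11% of itself and Cox7a2, and Cox8b had 0 counts. Of the testis forms, Cox6b2 made 4.56 ± 1.29% and 3.55 ± 0.885% of itself and Cox6b1, Cox7b2 had 0, 4, 1 and 3 counts, and Cox8c had 0. Ndufa4l2, a form known to be induced by low oxygen, had 5 and 8 counts in WT and 0 and 2 in the mutant (log2FC -2.59, adjusted p = 0.148), too few to show a difference at this depth. The 3 subunit c genes encode the same mature protein behind different import signals. Atp5g1 made 12.7 ± 1.96% of their sum in WT and 15.7 ± 0.948% in the mutant, Atp5g2 made 41.2 ± 0.157% and 40.8 ± 1.73%, and Atp5g3 made 46.1 ± 1.8% and 43.5 ± 0.781% (SD, n = 2 throughout). Atp5g1 itself had a log2FC of 0.74 (edgeR adjusted p = 0.0832), of 0.79 with the length correction (edgeR adjusted p = 0.0483) and of 0.31 without WT replicate 1.

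Many of these short genes have near-identical processed copies elsewhere in the genome, and reads that fit several places were not counted, so that levels of such genes are uncertain. The 11 processed pseudogenes with members' names had at most 3 counts in any library. Another identifier with the symbol Atp5o had 0 counts in each library, and with Cox7b2, Cox8b and Cox8c makes up the 4 members that were too low to test.

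The allele-specific table was used to see whether the JF1 (maternal) and B6 (paternal) copies of these genes were equally read. With a single direction of cross, parent and strain cannot be told apart. Of the 83 members, 57 autosomal ones had at least 10 allelic counts in both WT libraries and were tested, 23 autosomal ones fell below, 9 of these with no allelic count at all, and 3 are X-linked. The X-linked members, which a male has only from the mother, had 3 B6 counts of 3019. The median JF1 share over the tested members was 50.5% in WT and 50% in the mutant, against 49.8% and 48.9% over all genes tested, and 45 members were between 40 and 60% in each genotype. Unequal alleles were called for 17 members in WT (29.8%, against 23.4% of 11079 genes) and for 18 in the mutant (31.6%, against 21.8%). The difference between the alleles itself differed between genotypes for 9 members (15.8%, against 14.4%), 3 of them with a higher JF1 share in the mutant and 6 with a lower one. Several biases were alike on average in both genotypes: Ndufb4 was at 81.6% and 79.9% JF1, Ndufs5 at 70% and 69.2%, and Cox6c at 37.9% and 38% in WT and Zfp57-/- cells. These 3 were named after their values were seen. The Zfp57-/- replicates of Ndufs5 lay far apart, at 79.8 and 58.6%.

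**Figure D4:**
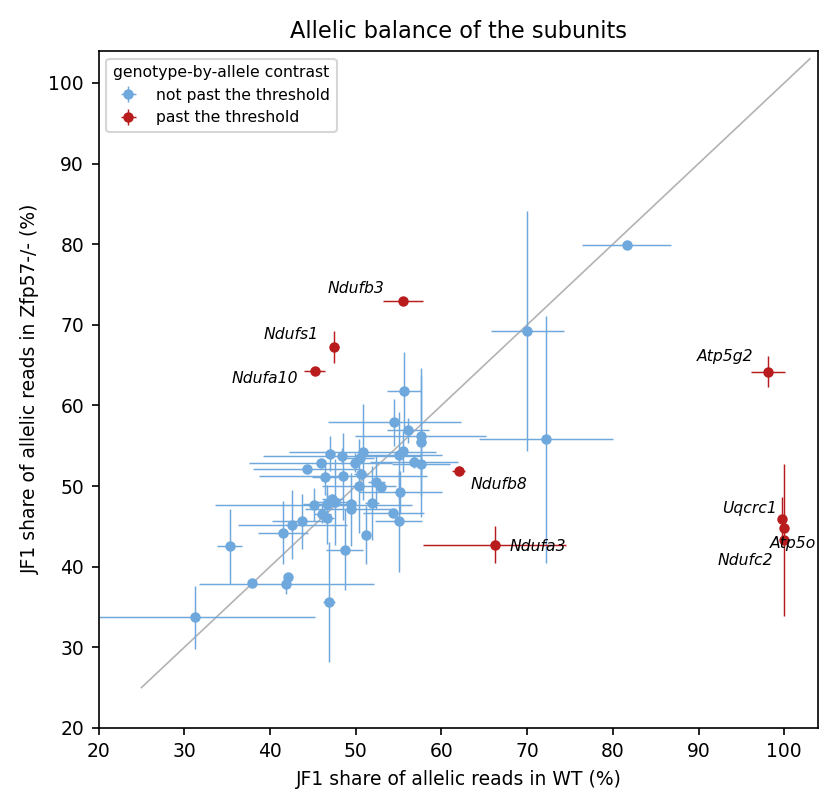
Mean JF1 share of allelic counts in WT (x axis, %) against Zfp57-/- cells (y axis, %) for the tested members, with SD over 2 replicates as bars. The 9 members of the genotype-by-allele contrast are coloured; 4 of them sit at the right edge, near 100% in WT, and most other members sit near 50% in both.

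The 3 members that moved toward the JF1 copy were those of complex I that were higher on proximal chromosome 1. The JF1 share of Ndufa10 was 44.4 and 46.1% in the WT replicates and 64 and 64.6% in the Zfp57-/- replicates (edgeR adjusted p = 1.82e-11). That of Ndufs1 was 47.1, 47.9, 68.6 and 65.7% (adjusted p = 6.91e-09), and that of Ndufb3 was 53.8, 57.1, 72.9 and 72.9% (adjusted p = 0.00602). The groups did not overlap in any of them. For Ndufs1 the scaled JF1 count was 188 and 182 in WT and 412 and 410 in the mutant. Its scaled B6 count was 211 and 198 against 189 and 214, so that its gain lay in the JF1 copy. The scaled B6 count of Ndufa10 was 276 and 368 in WT against 389 and 373 in the mutant, and that of Ndufb3 was 42 and 51.2 against 58.6 and 54.8. In both genes the mutant libraries lay close to WT replicate 2. For Cox5b, also on proximal chromosome 1, it was 170 and 230 against 468 and 391, above both WT libraries by more. The B6 counts by themselves were not tested between genotypes. Cox5b had JF1 shares of 54.2, 57, 58.4 and 65.2%, a difference that did not pass the threshold (adjusted p = 0.114). The call of Ndufb3 was lost with DESeq2 and without either WT replicate.

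Other genes around these members showed the same shift. Within 5 Mb of Ndufa10 the median JF1 share of 44 genes was 48.2% in WT and 65.2% in the mutant, and the median log2FC of 84 tested genes was 0.50. Around Ndufb3 the shares were 49.2% and 65% with a median log2FC of 0.47, around Ndufs1 49.6% and 64.8% with 0.18, and around Cox5b 52.1% and 63.8% with 0.53. Around Sdhc, on distal chromosome 1, the median shares were 47.1% and 49.6%, with a median log2FC of -0.22. The neighbours of Uqcrb had a median log2FC of 0.64 over 129 genes, and those of Cox6c, Cox7c and Cox7b had medians of -0.11, -0.54 and -0.18. The part of the neighbourhood in each member's difference was not tested.

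Of the 6 members that moved toward the B6 copy, 4 were read almost entirely from JF1 in WT cells. Uqcrc1 (chr9:108936633-108949623), a core protein of complex III, had 0 B6 counts of 1190 in WT, which allows a share of up to 0.252% (3 counts), and JF1 shares of 44.6 and 45% in the mutant (adjusted p = 2.84e-53). Its scaled JF1 count was 478 and 701 in WT and 331 and 331 in the mutant, and its scaled B6 count was 0 and 0 against 412 and 404. Ndufc2 (chr7:97400003-97407802), an accessory subunit of the membrane arm of complex I, had 0 B6 counts of 186, which allows up to 1.61% (3 counts), and JF1 shares of 36.6 and 50% in the mutant (adjusted p = 7.42e-20). Both were read from each copy in the mutant.

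Atp5o (chr16:91925214-91931687), the stalk protein that confers oligomycin sensitivity, had 2 B6 counts of 1161 in WT (0.172%, exact 95% interval 0.0209 to 0.621%), and JF1 shares of 43.9 and 47.8% in the mutant (adjusted p = 1.75e-52). Atp5g2 (chr15:102662864-102672352) had 12 B6 counts of 863 (1.39%, exact 95% interval 0.72 to 2.42%), and JF1 shares of 65.6 and 62.9% (adjusted p = 1.35e-29). These intervals and limits cover counting error only. Despite the change of allele, the total counts of Uqcrc1, Ndufc2, Atp5o and Atp5g2 gave no call, at log2FCs of 0.33, 0.28, 0.49 and 0.46 (adjusted p = 0.304, 0.468, 0.154 and 0.196). When WT replicate 1 was left out these were 0.05, -0.09, 0.17 and 0.14.

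The neighbours told these 4 apart. Around Uqcrc1, 63 of 79 genes within 5 Mb, and 39 of 39 within 1 Mb, were also at 95% JF1 or more in WT cells. Around Ndufc2 this held for 58 of 74 and for 15 of 15, and around Atp5o for 17 of 50 and for 16 of 20. None of these neighbours was at 95% or more in the mutant. Around Atp5g2 it held for 0 of 96 genes, whose median share was 49.8% in WT and 48.4% in the mutant, so that the JF1 reading of Atp5g2 was not shared by the region.

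**Figure D5:**
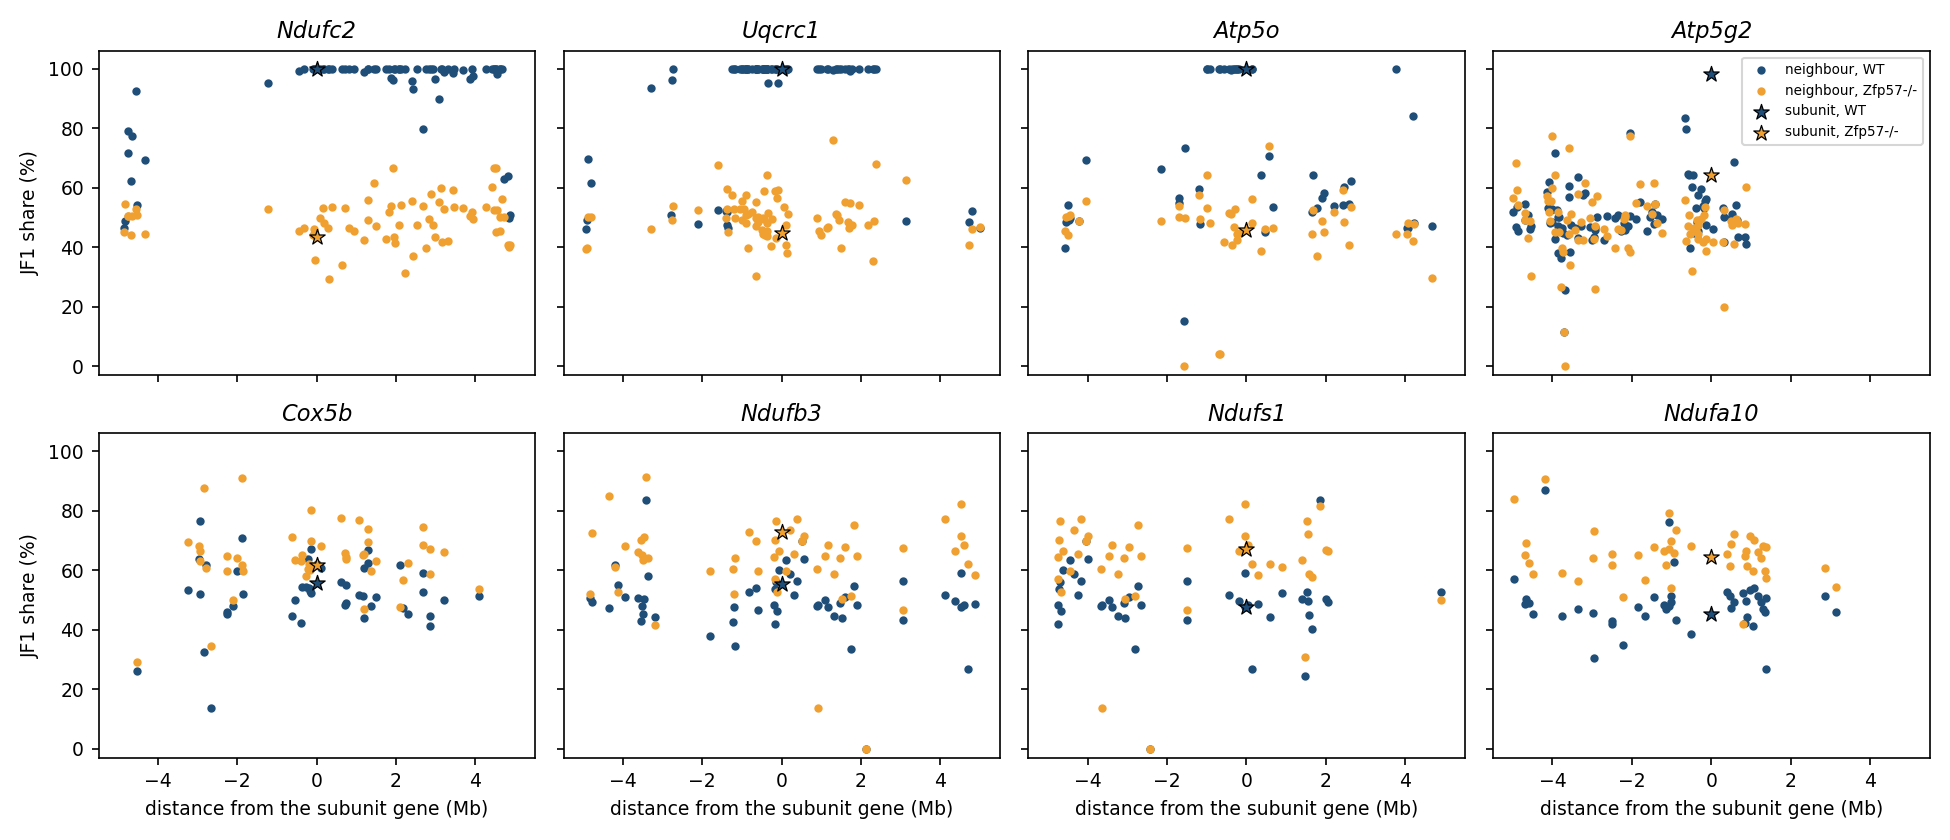
JF1 share of allelic counts (y axis, %) of genes within 5 Mb against their distance from the member in Mb (x axis), in WT (blue) and Zfp57-/- cells (orange), with the member as a star. Around Ndufc2, Uqcrc1 and Atp5o runs of neighbours lie near 100% in WT only, around Atp5g2 the star stands alone, and around the 4 members of proximal chromosome 1 the orange points lie mostly above the blue ones.

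The other 2 members that moved toward B6 encode accessory subunits of the membrane arm of complex I. Ndufa3 (chr7:3617373-3620327) had JF1 shares of 72 and 60.3% in WT and 44.4 and 41.1% in the mutant (adjusted p = 4.05e-06), and the median of 52 neighbours was 51.3% and 49.9%. Ndufb8 (chr19:44548572-44555440) had 62.5 and 61.5% against 51.6 and 52.3% (adjusted p = 0.0049), with neighbours at 54.1% and 49.3%. The shares did not overlap between genotypes in either gene, and neither total differed past the threshold (log2FCs 0.34 and 0.18). The call of Ndufb8 was lost with DESeq2 and without either WT replicate.

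Of the 13 subunits encoded by mitochondrial DNA 1 had a positive log2FC with all 4 libraries. None was higher (0 at an unadjusted p below 0.05 with edgeR, and 0 called by DESeq2) and 3 were lower in the mutant, against 13% and 14.6% of all genes by edgeR. The log2FCs ran from -1.08 to 0.08, with a median of -0.47. The 3 encode complex I subunits: mt-Nd2 had normalized counts of 4690, 3143, 1777 and 2154 (log2FC -0.99, adjusted p = 0.0115), mt-Nd4l had 411, 337, 229 and 225 (-0.72, adjusted p = 0.0304), and mt-Nd6 had 716, 323, 218 and 270 (-1.08, adjusted p = 0.0371). Without WT replicate 1 the log2FCs of mt-Nd2, mt-Nd4l and mt-Nd6 were -0.70, -0.59 and -0.43. WT replicate 1, the lowest library for the nuclear members, was above WT replicate 2 in each of the 13, with a median log2 ratio of 0.62. Without it the median log2FC of the mitochondrially encoded subunits was -0.10, and 4 were lower. With the length correction 9 were lower and the median was -0.97. With both changes it was -0.62 with 8 lower, when the median of the nuclear members was negative too (-0.23).

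Few of the genes that assemble the complexes passed the threshold. Of 15 complex I assembly genes, edgeR called 0 in either direction (2 higher and 1 lower at an unadjusted p below 0.05, and 0 called by DESeq2), with a median log2FC of 0.11. Without WT replicate 1 the median was -0.10 and 2 were higher, Ndufaf1 (0.50) and Ecsit (0.48). Of 31 assembly genes of complexes II to V, 1 was higher and 1 lower, against 13% and 14.6% of all genes. Their median was 0.17, and 0.07 without WT replicate 1. With the length correction the medians of the assembly lists were -0.01 and -0.02. The higher one was Coa5, a complex IV assembly factor on proximal chromosome 1 (chr1:37417084-37430103), with normalized counts of 467, 702, 1036 and 1071 (log2FC 0.85, adjusted p = 0.0204). The lower one was Cox19, which takes part in copper delivery to complex IV, with 200, 261, 81.8 and 89.5 (log2FC -1.43, adjusted p = 0.00302). Among 5 tested subunits and carriers outside the symbol pattern, 2 were higher. Cycs, the cytochrome c of somatic cells, had normalized counts of 587, 755, 1041 and 1064 (log2FC 0.65, adjusted p = 0.0373). Cyct, the testis form, had 0 and 0 counts in WT and 7 and 13 in the mutant (adjusted p = 0.0199). With the length correction Cycs did not pass (0.53, edgeR adjusted p = 0.0592) and Cyct did (edgeR adjusted p = 0.0259).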

How the data were processed

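RNA-seq of 2 WT and 2 Zfp57-/- JB1 replicates was used. The authors trimmed the 125 bp paired reads with Trimmomatic 0.36, aligned them with STAR 2.5.4a to GRCm38 and deposited raw counts of uniquely aligned fragments per gene and strand, made with featureCounts (Subread 1.6.0), and a like table of counts split by SNPs into JF1 and B6 reads. Identifiers were named by GENCODE vM21, which matched 54807 of 55602. Bulk counts per library were 7663520 to 10337082 and allelic counts 2837013 to 3826604.

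Genes with more than 8 counts over 4 libraries were compared by edgeR 4.0.16 (R 4.3.3, TMM, robust quasi-likelihood, Benjamini-Hochberg over 19995 genes, threshold 0.05). Normalized counts are scaled by TMM, and FPKM uses the union of annotated exons. For alleles, edgeR was fitted to the JF1 and B6 counts of all 4 libraries, with the library as a covariate and a JF1-over-B6 coefficient in each genotype. The number of replicates limits all p-values, which measure the spread between these samples only. The gene-length correction subtracts a loess trend (span 0.5) on exon length in each library. The trend is fitted to log counts relative to their mean over the libraries, so that a genotype difference that goes with length is also taken out. On simulated data the bulk test recovered 98.5% of 200 changed genes with 4 false calls among 19562, and the allele contrast 98% with 9 among 11079. Recovery at log2FCs of the size seen in the members called (0.67 to 1.23) was not tested. Recovery with replicates as far apart as those of WT, or of small allele shifts, was not tested either.

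The members and gene lists were chosen with earlier results of these data known. Named are, per complex, the up to 4 members of smallest adjusted p in each direction and the one of highest level per length, the tissue-restricted forms and their partners, members at 3 counts or fewer in all libraries of a genotype, members past the genotype-by-allele threshold or on chromosome 1, and up to 3 genes a direction of each other list. The values of 1 member are not reported here, though it is included in the counts. Alternatives were DESeq2 1.42.0, other scalings and filters, a replicate block, the length correction, raw counts for isoform shares, a stricter allelic minimum, each library left out, and, added after the data were seen, the length correction without WT replicate 1.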

Additional observations from a re-analysis of the deposited data

Results flagged for a closer look

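For 9 members the JF1 share differed between genotypes by a test of the difference itself (edgeR's genotype-by-allele contrast). That is 15.8% of the members tested, near the 14.4% of all genes tested. In percentage points, Zfp57-/- minus WT, the mean JF1 share changed by 19.1 for Ndufa10, 19.7 for Ndufs1 and 17.4 for Ndufb3. It changed by -23.5 for Ndufa3, -10.1 for Ndufb8, -56.7 for Ndufc2, -55.2 for Uqcrc1, -53.9 for Atp5o and -33.9 for Atp5g2. The median of the genes within 5 Mb of Ndufa10 went from 48.2 to 65.2%, and that around Atp5g2 from 49.8 to 48.4%. All 9 stayed called with the stricter allelic minimum, with the replicate block and without either Zfp57-/- replicate, and 7 with DESeq2 or without either WT replicate, the exceptions being Ndufb3 and Ndufb8.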

How the results depend on the processing

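With 2 libraries a genotype, the member count depended on the settings. The 8 higher members became 5 with total counts as the scale (11% of all genes higher, all-gene median -0.12), 17 with no filter on low counts (10.6%), 22 with a replicate block (17.4%), 5 (and 2 lower, median 0.01) with the length correction, and 4 (and 21 lower, median -0.23) with that correction and without WT replicate 1. With a library left out, leaving a lone replicate that is assumed to vary like the others, higher members ranged from 1 to 57, lower ones from 0 to 5, the median from 0.07 to 0.69, and all genes called from 2756 to 10005, against 5522. DESeq2 called unequal alleles for 10 members in WT (17.5%, against 10.7% of all genes) and 8 in the mutant (14.3%, against 7.82%). On raw counts the WT and Zfp57-/- isoform shares were 6.95 and 5.45% for Cox6b2, 2.86 and 2.73% for Cox7a1, 26.8 and 32.1% for Atp5g1, 29.8 and 28.4% for Atp5g2, and 43.4 and 39.5% for Atp5g3. The causes were not tested. The replicate numbers are not known to pair libraries: in a check of the pairing, the deviations of libraries that share a number had a correlation of 0.145 (11736 genes). The replicate block, with 22 higher members against 8, kept 9 allelic differences. Some members named outside the naming rule turned sign. Ndufs5 went from a log2FC of 0.16 to -0.31 with the length correction and to -0.27 without WT replicate 1. With that correction and without WT replicate 1 it was at -0.67, and Atp5a1 went from 0.29 to -0.08 and Atp5j from 0.31 to -0.10. Of the members named by the rule, log2FCs that were not called with all 4 libraries turned sign as follows. With the length correction they were -0.14 for Cox8a and Cox7a1, -0.15 for Cox6a1, -0.06 for Cox6b1, -0.28 for Cox6b2, -0.01 for Cox7a2, -0.10 for Ndufa3 and -0.22 for Ndufc2. With it and without WT replicate 1 they were -0.14 for Ndufa4 and Atp5g3, -0.03 for Sdha, -0.09 for Uqcr11 and Atp5o, -0.21 for Uqcr10, -0.47 for Cox8a, -0.23 for Atp5k and Cox7a2, -0.46 for Cox6a1, -0.31 for Cox6b1, -0.25 for Cox6b2, -0.01 for Cox7a1, -0.15 for Atp5g2, -0.29 for Ndufa3, -0.24 for Ndufb8 and -0.52 for Ndufc2, of which Cox8a, Cox6a1 and Ndufc2 passed the threshold as lower (adjusted p = 0.0128, 0.0113 and 0.0192). With each library left out in turn, values ranged from -0.003 to 0.26 for Sdha, -0.36 to 0.21 for Sdhb, -0.43 to 0.31 for Sdhc, -0.20 to 0.17 for Uqcrc2, -1.29 to 0.25 for Cox6a2, -0.47 to 0.12 for Atp5s, -0.21 to 0.10 for Atp5c1, -0.01 to 0.84 for Cox6a1, -0.15 to 0.41 for Cox6b2, -0.10 to 0.49 for Ndufb8 and -0.09 to 0.76 for Ndufc2. Of the other values of single genes, 443 counted as unchanged, 59 passed the threshold only under an alternative and 25 lost it. For fold changes, unchanged means the same direction and side of the threshold, or the same direction where no adjusted p was given. For JF1 shares it means that the share of pooled reads stayed within the replicate SD of the mean share.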

Other observations

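Of 18 regulators of mitochondrial biogenesis 3 were higher and 2 lower in the mutant by edgeR, against 13% and 14.6% of all genes. Their median log2FC was 0.36. The median was 0.34 without WT replicate 1, 0.34 with the length correction and 0.30 with both. With the length correction 6 were higher and 2 lower, against 14.5% and 15.7% of all genes. Esrrb, an estrogen-related receptor that is also a pluripotency factor, had normalized counts of 16.3 and 27.9 in WT and 2290 and 2203 in the mutant (log2FC 6.63, adjusted p = 1.71e-06). Its relative Esrrg, which is known from oxidative tissues, had 57.1 and 21.6 against 5.05 and 4.81 (log2FC -2.95, adjusted p = 0.0127). Pprc1, a coactivator of the PGC-1 family, had 464 and 491 against 1129 and 967 (log2FC 1.13, adjusted p = 0.00205). Polg, the mitochondrial DNA polymerase, had a log2FC of 0.67 (adjusted p = 0.0267), and Tfb1m, which methylates mitochondrial ribosomal RNA, of -1.09 (adjusted p = 0.0388). All 5 were called with the length correction and kept their direction without WT replicate 1.

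Of 17 genes of the tricarboxylic acid cycle and pyruvate entry, 1 was higher and 0 were lower by edgeR, against 13% and 14.6% of all genes. At an unadjusted p below 0.05 with edgeR 0 were lower, and DESeq2 called 0 lower. The median log2FC was 0.16. The higher one was Pdhb, a pyruvate dehydrogenase subunit, with normalized counts of 671 and 697 in WT and 1095 and 1042 in the mutant (log2FC 0.64, edgeR adjusted p = 0.0271). Without WT replicate 1 the median was -0.04, with Pdhb (0.59) and Idh3b (0.34) higher and Cs (-0.30), Idh2 (-0.44) and Mdh2 (-0.41) lower, all of them enzymes or subunits of this route. With the length correction it was 0.11, with Pdhb (0.58) and Dlst (0.65) higher and Idh2 (-0.54) lower. Among the markers of other cell types, 3 of 5 tested mesoderm and muscle genes were higher and 1 lower, with summed levels of 16.9 and 18.5 FPKM in WT and 80.4 and 84.6 in the mutant. All 3 germline markers were higher, at summed levels of 0.303 and 0.271 against 9.06 and 9.33 FPKM.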
